A study of Mus musculus with 7 samples.

Results

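The 6 genes described here, Epcam, Cdh1, Cldn1, Itgae, Tjp1 and Ctnnb1, encode proteins that hold epithelial cells together or that bind to such proteins. They were chosen by symbol, with earlier results of these data known. All 6 were listed in the donor table of 15155 genes, the keratinocyte table of 26383 genes and the host table of 23737 genes. The tables held single-cell RNA sequencing of mouse epidermis (C57BL/6) 3 weeks after bone marrow transplantation (BMT). Hosts were lethally irradiated males (CD45.2), and the marrow came from females (CD45.1, C57BL/6). The design text of the series lists CD4 T cells, and CD8 T cells of the Matahari line with a transgenic receptor for a male antigen, in the transplant as a whole. The labels name added T cells for 2 libraries, which are called BMT + T cells here, and the others are called BMT. By the design text the BMT libraries may have had T cells too, so BMT + T cells against BMT compares labels and not the presence of T cells.

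Donor CD11b+MHCII+ myeloid cells came as BMT replicates 1, 2 and 3 and as BMT + T cells replicate 4, with 2572, 8382, 226 and 719 cells. Host CD45neg keratinocytes came as 1 library under each label (2836 and 2590 cells), and host CD11b+MHCII+ cells as 1 library labelled BMT (781 cells). According to the study's methods and legends, epidermis of several mice was pooled for sorting, and donor cells came from more than a single experiment. The sources used here give no age of the animals and do not tie numbers of mice to single libraries, so libraries and not mice are the replicates. The p-values between clusters measure how far cluster differences vary from library to library, pooled over clusters. Those between labels measure the spread between libraries. Both kinds of spread may be technical. Median depth ran from 4376 unique molecular identifiers (UMIs, which count transcripts) per cell in the host library to 13387 in BMT replicate 1, and any pair of libraries shared at most 7 cell barcodes. Sorting of these libraries used CD11b and MHCII or the absence of CD45, and not EpCAM.

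Langerhans cells are the macrophage-lineage antigen-presenting cells of the epidermis. They sit between keratinocytes and share adhesion molecules with them. EpCAM is a surface protein that binds to itself on neighbouring cells, and E-cadherin, encoded by Cdh1, does the same at adherens junctions, where β-catenin (Ctnnb1) ties its tail through α-catenin to actin. Claudin-1 (Cldn1) forms the strands of tight junctions, ZO-1 (Tjp1) is the scaffold beneath them, and Itgae encodes the αE integrin chain (CD103), which pairs with β7 and binds E-cadherin. Langerhans cells that leave the skin are known to loosen E-cadherin contacts.

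The study annotated 9 donor clusters. Resident mLCs (monocyte-derived Langerhans cells; 1651 cells) were named by the study from Cd207, Epcam and Mfge8, cycling mLCs (375 cells) from cell cycle genes and migrating mLCs (875 cells) from Ccr7, a chemokine receptor of migrating cells. The others were monocytes (Mono, 938 cells), ISG, Hmox1+ and S100a+ monos, Mrc1+ macs (3123 cells) and MCs (2052 cells), a converting population between monocytes and mLCs. Because Epcam helped to name mLCs, its differences between clusters are given without p. The clusters as a whole were made from the same values, so the calls on the other genes describe the annotation too. The summed level of 5 Langerhans cell markers, Epcam among them, was 343 to 548 UMIs per 10000 UMIs of the cell (CP10K) in resident mLCs against 135 to 269 in Mono. Most of both sums came from Cd74, an MHC class II chain.

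On GRCm38 (RefSeq, GRCm38.p6), Epcam lies at chr17:87635979-87651127, Cdh1 at chr8:106603350-106670247, Cldn1 at chr16:26356645-26371839, Itgae at chr11:73090505-73147449, Tjp1 at chr7:65296165-65527850 and Ctnnb1 at chr9:120933400-120960507. The 250 bases before the start site are shown for Epcam and Cldn1, the members whose levels moved most alike across donor clusters (Pearson r = 0.90 over library-by-cluster profiles). The Epcam window is chr17:87635729-87635978 on the plus strand and the Cldn1 window chr16:26371840-26372089 on the minus strand. Capitals mark CACCTG or its reverse complement CAGGTG, the E-box letters that the zinc-finger repressors Zeb1, Zeb2 and Snai1 are known to bind.
Epcam: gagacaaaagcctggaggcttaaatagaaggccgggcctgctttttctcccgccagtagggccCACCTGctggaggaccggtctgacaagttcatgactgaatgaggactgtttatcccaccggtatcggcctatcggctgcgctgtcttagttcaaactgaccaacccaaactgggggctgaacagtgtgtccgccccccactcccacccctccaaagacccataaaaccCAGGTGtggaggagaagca
Cldn1: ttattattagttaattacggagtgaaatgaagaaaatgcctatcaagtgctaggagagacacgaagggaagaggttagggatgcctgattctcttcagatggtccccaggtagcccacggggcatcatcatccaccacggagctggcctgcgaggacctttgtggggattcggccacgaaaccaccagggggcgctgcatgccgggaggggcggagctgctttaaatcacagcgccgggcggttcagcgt
The Epcam window held the motif at 2 places, which begin 187 and 19 bases before the start site, and the Cldn1 window held none. Of 32851 RefSeq promoters of 300 bases (250 before and 50 after a start), 20.2% held the motif on either strand and 2.88% held it at 2 or more places. The windows of Tjp1 and of both Ctnnb1 starts held none. The promoter set used here had no window for Cdh1 or Itgae, so the motif was not sought in them. A match describes the letters and not a bound site.

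Epcam was highest in resident mLCs of every library. Its mean level there was 26.0, 18.7 and 22.3 CP10K in BMT replicates 1, 2 and 3 and 24.1 CP10K in BMT + T cells replicate 4 (22.8 ± 3.13, SD, n = 4 libraries). In Mono it was 0.245, 0.345, 0.218 and 0.659 CP10K in the same order, and the groups did not come near each other. Between them lay a graded order. Cycling mLCs were at 14.9 ± 0.895 CP10K (n = 3), MCs at 10.2 ± 2.01 (n = 3), migrating mLCs at 6.30 ± 2.33 (n = 2), ISG monos at 5.11 ± 2.71 (n = 3) and Mrc1+ macs at 1.09 ± 0.455 (n = 4). Resident mLCs, cycling mLCs, MCs and migrating mLCs did not overlap in that order, whereas migrating mLCs and ISG monos did, and Mrc1+ macs, Mono and Hmox1+ monos overlapped with their neighbours.

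**Figure D1:**
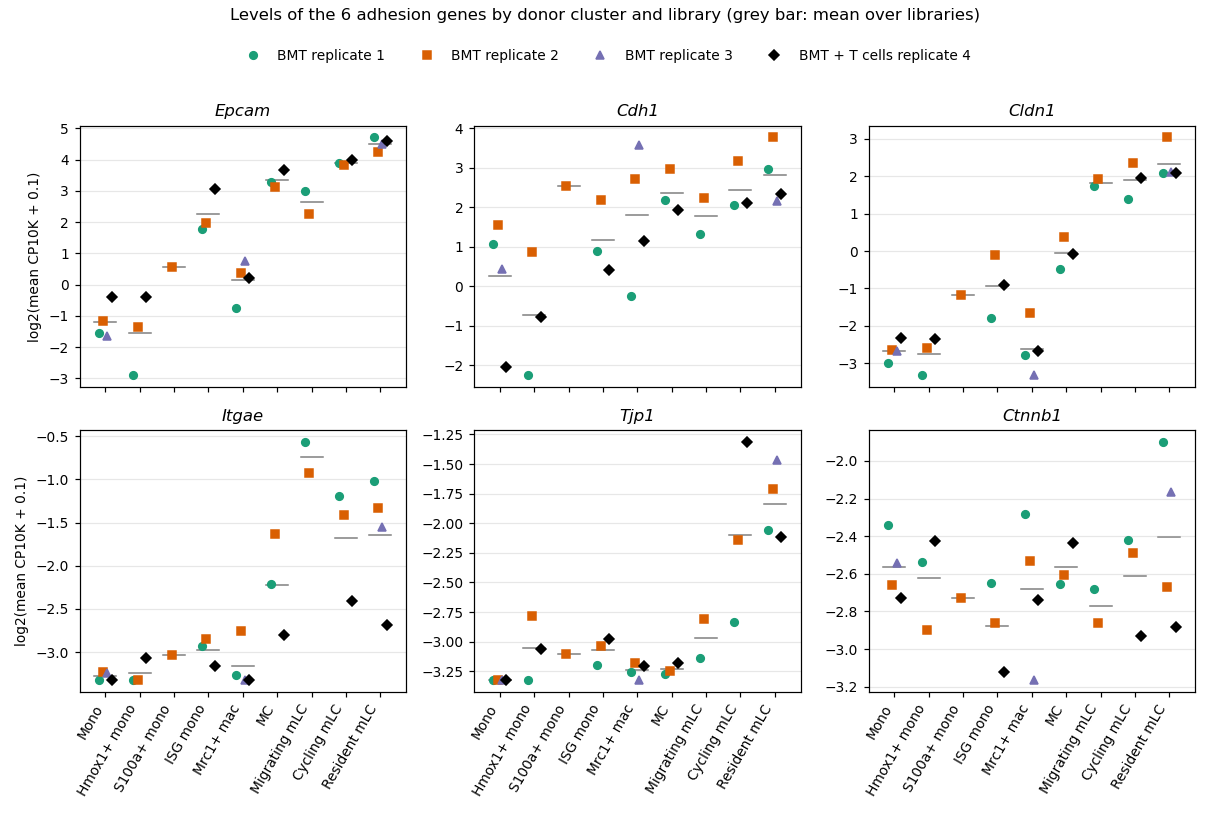
Level of each of the 6 genes, as log2(mean CP10K + 0.1), in each donor cluster (x axis) and library (symbols), with the mean over libraries as a grey bar and only clusters of at least 20 cells. Epcam climbs from Mono (0.218 to 0.659 CP10K) through MCs to resident mLCs (18.7 to 26.0 CP10K), Cldn1 rises at the mLC clusters, Cdh1 is spread widely in Mrc1+ macs (0.740 to 11.9 CP10K), and Ctnnb1 stays between 0.0116 and 0.168 CP10K throughout.

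Cldn1 followed the mLC clusters more narrowly. Resident mLCs held 4.15, 8.07 and 4.23 CP10K in BMT replicates 1, 2 and 3 and 4.11 CP10K in BMT + T cells replicate 4. Cycling mLCs held 2.49, 4.96 and 3.78 CP10K (BMT replicates 1 and 2 and replicate 4) and migrating mLCs 3.21 and 3.70 CP10K (BMT replicates 1 and 2), so these 3 clusters overlapped. MCs were lower in each library, at 0.616, 1.20 and 0.838 CP10K, and apart from all mLC values. Mono held 0.0259 to 0.10 CP10K and Mrc1+ macs 0 to 0.216 CP10K. The MC values overlapped with those of ISG monos (0.187 to 0.831 CP10K).

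Cdh1 was high in resident mLCs but not confined to them. Resident mLCs held 7.79, 13.5, 4.36 and 4.96 CP10K in BMT replicates 1, 2 and 3 and replicate 4, and Mono 2.01, 2.84, 1.26 and 0.142 CP10K. The lowest resident mLC value was above the highest Mono value. MCs held 4.43, 7.74 and 3.74 CP10K and cycling mLCs 4.08, 8.94 and 4.21 CP10K, and both overlapped with resident mLCs. S100a+ monos, which reached 20 cells in BMT replicate 2 alone, held 5.73 CP10K. BMT replicate 2 was the highest library in 7 of the 8 clusters with values from more than 1 library, Mrc1+ macs being the exception.

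In Mrc1+ macs, Cdh1 ran from 0.740 CP10K in BMT replicate 1 through 6.45 in replicate 2 to 11.9 in replicate 3, with 2.13 in BMT + T cells replicate 4. BMT replicate 3 thus had more Cdh1 in Mrc1+ macs than in resident mLCs, against the other 3 libraries. That value came from 45 cells with a median of 2214 UMIs. In BMT replicate 2 the level in Mrc1+ macs went with depth: 10.8 CP10K in cells under 2000 UMIs (476 cells), 7.98 from 2000 to 5000, 4.57 from 5000 to 10000 and 2.34 from 10000 to 20000 (425 cells). Resident mLCs of the same library also differed with depth, from 20.9 to 11.5 CP10K over the same bins, while Mono stayed between 2.33 and 3.14 CP10K. In BMT replicate 1 the Mrc1+ mac level was 0.235, 0.524, 2.82 and 0.656 CP10K over the same bins and 0.526 CP10K above 20000 UMIs, lowest in the shallowest cells and highest in the middle bin. Whether depth has a part in the Mrc1+ mac values was not tested.

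**Figure D2:**
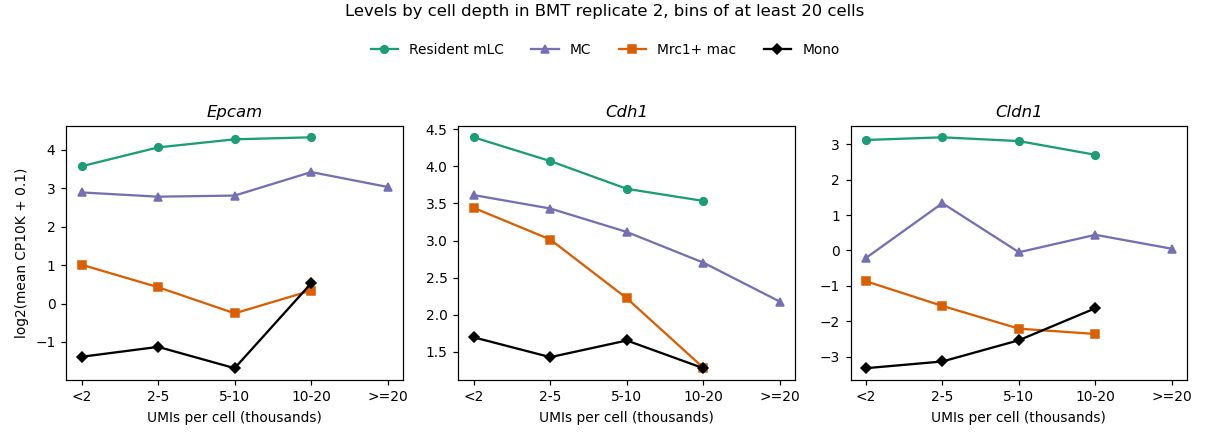
Levels of Epcam, Cdh1 and Cldn1, as log2(mean CP10K + 0.1), by UMIs per cell (x axis) for 4 donor clusters of BMT replicate 2, bins of at least 20 cells. Cdh1 in Mrc1+ macs falls from 10.8 to 2.34 CP10K with depth and meets Mono in the deepest bin, while Epcam of resident mLCs is at 11.8 CP10K under 2000 UMIs and at 19.3 CP10K from 5000 to 10000.

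Epcam and Cdh1, whose proteins both bind to themselves on the next cell, were in different proportion in different clusters. In resident mLCs there were 0.230, 0.651, 0.161 and 0.161 Cdh1 UMIs per Epcam UMI in BMT replicates 1, 2 and 3 and replicate 4, and in MCs 0.413, 0.749 and 0.296 (BMT replicates 1 and 2 and replicate 4). In Mono of the 3 BMT libraries there were 6.74, 6.69 and 1.95 Cdh1 UMIs per Epcam UMI, and in the BMT + T cells library 0.274. The last rests on 29 Cdh1 UMIs in 63 cells.

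Itgae, the chain that binds E-cadherin, was sparse and highest in migrating mLCs. These held 0.576 and 0.426 CP10K in BMT replicates 1 and 2. Resident mLCs held 0.394, 0.299 and 0.241 CP10K in the BMT libraries and 0.0552 CP10K in BMT + T cells replicate 4, the lowest of the 4. MCs held 0.116, 0.221 and 0.0429 CP10K, and Mono had 0, 2, 2 and 0 UMIs in the 4 libraries. Itgae also marks cDC1, a dendritic cell lineage. The summed level of 4 listed cDC1 markers of 5, Itgae among them, was 1.30 to 1.68 CP10K in migrating mLCs and 0.131 to 0.560 CP10K in resident mLCs. It was 0.356 to 2.78 CP10K in MCs, 0.554 to 1.29 CP10K in Mono and 0.408 to 1.59 CP10K in Mrc1+ macs, so it was not particular to migrating mLCs. The ranges take in profiles of 2 and 16 cells for migrating mLCs and of 18 cells for MCs. Whether cDC1 have a part in the Itgae of migrating mLCs was not tested.

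Tjp1 was sparse too, and highest in resident and cycling mLCs. Resident mLCs held 0.140, 0.206, 0.262 and 0.130 CP10K, which are 7, 170, 11 and 44 UMIs. Cycling mLCs held 0.0403, 0.127 and 0.303 CP10K, on 3, 43 and 6 UMIs. Mono had no Tjp1 UMI in any of 4 libraries (0 UMIs in 938 cells). Summed over libraries, resident mLCs had an at least 39.9-fold higher level than Mono, taking 3 UMIs over all Mono cells as the limit that a count of 0 allows. MCs had 16 Tjp1 UMIs in 2034 cells, a 22.5-fold lower summed level than resident mLCs.

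Ctnnb1 did not follow the mLC clusters. Resident mLCs held 0.168, 0.0572, 0.123 and 0.0357 CP10K and Mono 0.0977, 0.0585, 0.0718 and 0.0509 CP10K, with overlap. The highest value over all 27 library-by-cluster profiles was 0.168 CP10K, and no profile held more than 124 UMIs.

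The clusters were compared in limma with library as a block, over 7267 genes of at least 0.1 CP10K on average. A gene was called at an absolute log2 difference above 2 on the log2(CP10K + 0.1) scale with an adjusted p (Benjamini-Hochberg) under 0.05. Of the 6 genes, 4 passed the low-value filter. Itgae, with a mean of 0.121 CP10K, passed narrowly and through the mLC clusters, migrating mLCs foremost. Its differences between clusters are therefore given without p. Tjp1 and Ctnnb1 (0.0536 and 0.0651 CP10K) did not pass. Both are given from the fit without the filter, with a pseudocount of 0.1 and under no other setting. As their levels are of the order of the pseudocount, the sizes depend on it.

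Resident mLCs exceeded Mono in Epcam, Cldn1 and Cdh1. The log2 difference was 5.69 ± 0.341 (SE) for Epcam, 4.99 ± 0.234 for Cldn1 (limma adjusted p = 1.42e-13) and 2.56 ± 0.637 for Cdh1 (limma adjusted p = 0.00547), each higher in 4 of 4 libraries. In this comparison 4.06% of all genes tested were called in either direction. With a pseudocount of 1 and with deposited log means the Cdh1 difference fell short of the fold threshold (1.78 and 1.97). The Cdh1 call was lost without BMT replicate 2 (log2 difference 2.67, limma adjusted p = 0.0902) and without BMT + T cells replicate 4 (1.95, limma adjusted p = 0.0549). Itgae differed by 1.64 ± 0.258 and was higher in 4 of 4 libraries, and this size depended on the scale, from 0.16 with deposited log means to 4.87 with voom on summed UMIs. Tjp1 differed by 1.48 ± 0.197 (limma without the filter, adjusted p = 2.86e-05) and Ctnnb1 by 0.16 ± 0.185 (adjusted p = 0.639). Mono had no Tjp1 UMI, so the size for Tjp1 is set by the pseudocount and the resident mLC level.

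Against Mrc1+ macs, the order of the members changed. Cldn1 was higher in resident mLCs by 4.94 ± 0.234 (limma adjusted p = 1.80e-13) and Epcam by 4.35 ± 0.341, in 4 of 4 libraries each, where 3.51% of all genes were called. Cdh1 differed by 1.01 ± 0.637 (limma adjusted p = 0.246), higher in 3 of 4 libraries and lower by 1.43 on the log2 scale in BMT replicate 3. Without that library the Cdh1 difference was 1.82 (limma adjusted p = 0.0516), without BMT replicate 1 0.27 (adjusted p = 0.747), with cells of at least 2000 UMIs 1.05 (adjusted p = 0.212) and with voom 1.83 (adjusted p = 0.00110). Itgae differed by 1.52 ± 0.258 (0.15 to 3.64 over the other settings) and Tjp1 by 1.40 ± 0.197 (without the filter, adjusted p = 5.62e-05).

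Between resident mLCs and MCs, Cldn1 was called and Cdh1 was not. It was higher in resident mLCs by 2.50 ± 0.258 (limma adjusted p = 1.33e-07) in 3 of 3 libraries, where 2.09% of all genes were called, but fell short of the fold threshold with a pseudocount of 1 (1.70) and with deposited log means (1.72). Epcam differed by 1.14 ± 0.377, Cdh1 by 0.30 ± 0.705 (limma adjusted p = 0.825) and Itgae by 0.58 ± 0.286. Within BMT replicates 1 and 2 and BMT + T cells replicate 4, the libraries with both clusters, Cdh1 differed by 0.80, 0.80 and 0.40. The fitted value is lower because the fit also uses resident mLCs of BMT replicate 3, which has no MC value, and without that library it was 0.67 (limma adjusted p = 0.515). Tjp1 differed by 1.36 ± 0.218 without the filter (adjusted p = 0.000487), below the fold threshold.

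MCs exceeded Mono in Epcam by 4.55 ± 0.377 and in Cldn1 by 2.49 ± 0.258 (limma adjusted p = 4.28e-07), both in 3 of 3 libraries, where 0.922% of all genes were called. The Cldn1 difference was 0.78 with a pseudocount of 1 and 0.45 with deposited log means, below the fold threshold. Cdh1 differed by 2.25 ± 0.705 (adjusted p = 0.0675), again in 3 of 3 libraries, and it passed with cells of at least 2000 UMIs (2.29, limma adjusted p = 0.0490) and without BMT replicate 1 (2.63, adjusted p = 0.0296), but not without BMT + T cells replicate 4 (1.58, adjusted p = 0.457). Itgae differed by 1.06 ± 0.286, and by 0.10 to 4.32 over the other settings. Tjp1 in MCs differed from Mono by 0.12 ± 0.218 without the filter (adjusted p = 0.981).

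Within the mLCs neither Cldn1 nor Cdh1, the filtered members given with p, was called. Cycling minus resident mLCs gave -0.59 ± 0.377 for Epcam and -0.54 ± 0.258 for Cldn1 (limma adjusted p = 0.202). Cdh1 gave -0.22 ± 0.705 (limma adjusted p = 0.900) and Itgae -0.03 ± 0.286, where 1.36% of all genes were called. Within the 3 libraries with both clusters, Cdh1 in cycling minus resident mLCs was -0.92, -0.59 and -0.23, and without BMT replicate 3, which has no cycling value, the fit gave -0.58 (limma adjusted p = 0.626). Migrating minus resident mLCs gave -1.63 ± 0.432 for Epcam and -1.22 ± 0.807 for Cdh1 (limma adjusted p = 0.308). Cldn1 gave -0.59 ± 0.296 (limma adjusted p = 0.163) and Itgae 0.71 ± 0.327. Here 2.61% of all genes were called and the median over all genes was -0.26. In both libraries with migrating mLCs, Epcam, Cdh1, Cldn1 and Tjp1 were lower than in resident mLCs and Itgae was higher, by 0.45 and 0.40 within those libraries. Within BMT replicates 1 and 2, Epcam differed by -1.70 and -1.98 and Cdh1 by -1.67 and -1.54. The fitted values differ from these because the fit also uses resident mLCs of BMT replicate 3 and BMT + T cells replicate 4, which have no migrating value. Leaving out 1 library moved the fitted values. Without BMT replicate 1 or 2 only 1 library with migrating mLCs was left, so those values are given without test. Without BMT replicate 2 Epcam gave -1.13 and Cldn1 -0.17, and without BMT replicate 1 they gave -1.96 and -0.90. Itgae gave 0.97 without BMT replicate 2 and 0.48 without BMT + T cells replicate 4. With deposited log means Epcam gave -2.19, past the fold threshold. Tjp1 differed by -1.04 ± 0.249 without the filter (adjusted p = 0.00988).

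**Figure D3:**
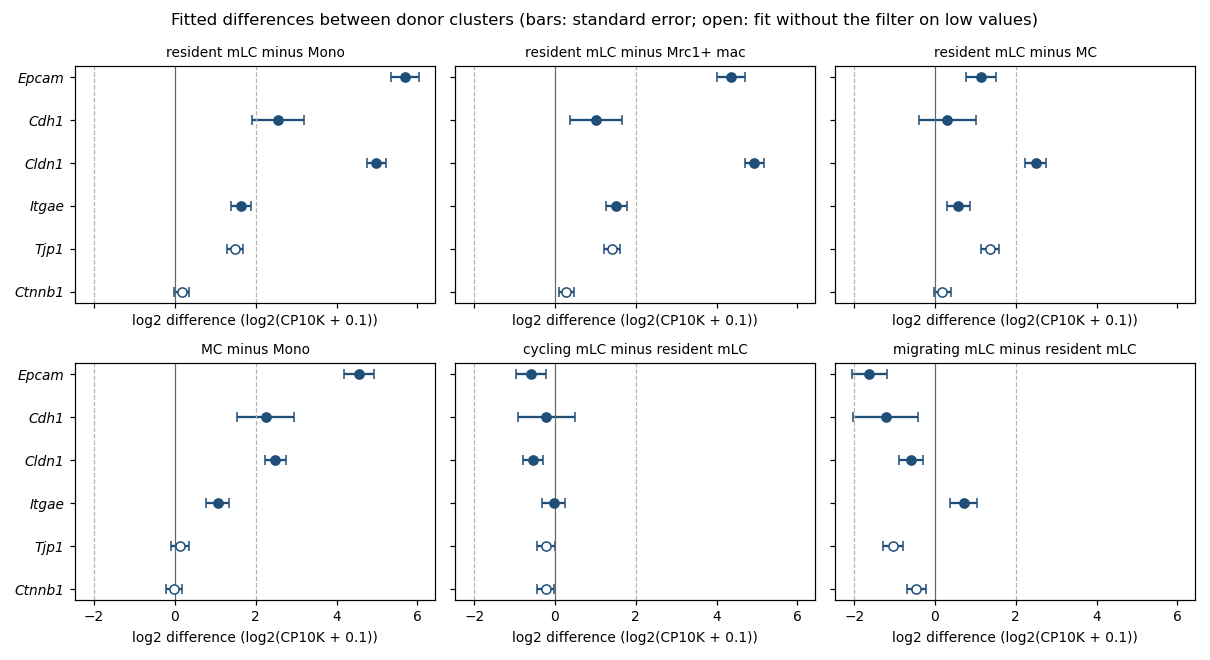
Fitted log2 differences (x axis, log2(CP10K + 0.1) scale) of the 6 genes (y axis) in 6 comparisons of donor clusters, with standard errors as bars, the fold threshold of 2 as dashed lines and open symbols for genes below the low-value filter. Cldn1 stands near 5 against both Mono and Mrc1+ macs and at 2.50 against MCs, whereas Cdh1 has the widest bars.

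Shares of cells were taken after thinning to 2000 UMIs and leaving out shallower cells, which dropped 19 of 105, 48 of 1175, 4 of 51 and 45 of 320 resident mLCs in BMT replicates 1, 2 and 3 and replicate 4. Epcam was detected in 94.1% to 97.9% of resident mLCs over the 4 libraries, Cdh1 in 58.9% to 88.6% and Cldn1 in 46.8% to 72.9%. In Mono, which should hold little of them, the shares were 4.17% to 8.77%, 1.75% to 30.7% and 0.417% to 5.26%. Itgae was detected in 0.727% to 6.38% of resident mLCs, Tjp1 in 1.16% to 4.26% and Ctnnb1 in 0.727% to 4.26%. Unthinned, the mean share in resident mLCs was 93.6% for Epcam, 93.2% for Cdh1 and 87.4% for Cldn1. Median depth was 10082, 7343, 18027 and 12852.5 UMIs in resident mLCs and 10821, 5382, 10802 and 11693 in Mono. A resident mLC held on average 2.10 to 2.65 of the 6 genes, an MC 1.20 to 1.45 and a Mono 0.158 to 0.389. Cdh1 and Cldn1 were found in the same resident mLC in 29.1% to 64.9% of cells, which differed by -0.257 to 3.17 percentage points from the product of their separate shares. For Epcam with Cldn1 the difference was -0.379 to 0.996 points.

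Likeness over the 27 donor profiles, which share libraries and clusters, is a description. Epcam went most closely with Cldn1 among the members (Pearson r = 0.90), and Cldn1 with Itgae next (r = 0.86). Epcam and Cdh1 had r = 0.65, and Ctnnb1 had r between -0.05 and 0.30 with the other members. Of all genes tested, those most like Epcam were H2-DMb2 (r = 0.95), a chaperone of MHC class II loading, Rgs12 (0.94) and Selplg (0.92), the P-selectin ligand. Cldn1 was nearest to Lzts1 (0.92), Rgs12 (0.92) and Cst3 (0.92), a cysteine protease inhibitor. Cdh1 was nearest to Dpysl2 (0.87), Eif5b (0.85) and Nectin1 (0.82), an adhesion molecule of adherens junctions, and Itgae to Ly75 (0.90), the lectin DEC-205, Sema6d (0.89) and Lzts1 (0.88).

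Of a list of 40 further junction genes, 31 were listed in the donor table and 12 passed the low-value filter. The list, too, was chosen with earlier results of these data known. None was called in resident mLCs against Mono, since no log2 difference exceeded 2, but 9 of the 12 had a limma adjusted p under 0.05 and all 9 were higher, where 18.4% of all genes tested were higher at that threshold. The median of the 12 was 1.03, against 0.14 over all genes tested. The largest differences, named after their values were seen, were those of Marveld2 (1.88 ± 0.229), a tight junction protein, Afdn (1.85 ± 0.243), the nectin-binding afadin, and Nectin1 (1.85 ± 0.249). The catenins of the E-cadherin complex also differed, Ctnna1 by 0.93 ± 0.143, Ctnnd1 by 1.11 ± 0.200 and Jup by 1.43 ± 0.236. Itgb7, the partner chain of Itgae, differed by 0.26 ± 0.199 (limma adjusted p = 0.347). Against Mrc1+ macs 8 of the 12 and against MCs 6 of the 12 were higher at an adjusted p under 0.05, with none lower, where 17.9% and 8.52% of all genes tested were. In migrating mLCs 4 were lower than in resident mLCs, Afdn (-1.75 ± 0.308), Ctnnd1 (-1.58 ± 0.253), Ctnnbip1 (-1.50 ± 0.198) and Itgb7 (-1.02 ± 0.252), and none higher, where 13.3% of all genes tested were lower at that threshold and the median over all genes was -0.26.

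Of a list of 7 repressors of epithelial genes (Zeb, Snai and Twist families), 3 were listed and 2 tested. These went opposite ways (named after their values were seen). Zeb2 was at 0.471, 0.357, 0.0331 and 0.0910 CP10K in resident mLCs and at 1.64, 2.43, 1.89 and 1.80 CP10K in Mono, apart in all libraries. Resident mLCs minus Mono gave -2.82 ± 0.282 (limma adjusted p = 2.11e-08), a call, and MCs minus Mono -1.47 ± 0.311 (adjusted p = 0.00306). Zeb1 was at 0.430, 0.660, 0.287 and 0.461 CP10K in resident mLCs and at 0.0283 to 0.105 CP10K in Mono. Its difference was 1.80 ± 0.198, below the fold threshold. Resident mLCs also exceeded Mrc1+ macs by 1.73 and MCs by 1.75. These differences are given without p, because the Mono level of Zeb1 was near or under the low-value filter of 0.1 CP10K.

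The authors deposited a latent time from RNA velocity, a fraction that places each donor cell between a start and an end of differentiation. From 0 to 0.2 of it Epcam was at 3.21, 3.31, 2.14 and 4.57 CP10K in BMT replicates 1, 2 and 3 and replicate 4. ISG monos were the most frequent cluster there in BMT replicates 1 and 3 and in replicate 4 (67.0%, 33.3% and 42.9% of cells). In BMT replicate 2 Mrc1+ macs were (33.7%). The median latent time of Mono was 0.207, 0.244, 0.307 and 0.313 in library order, past the end of this bin. From 0.4 to 0.6 it was at 14.0, 11.6, 9.91 and 16.9 CP10K, above every value from 0 to 0.2. BMT replicate 3 had 24 cells there. Cldn1 was at 0.0600 to 0.268 CP10K from 0 to 0.2 and at 2.00 to 5.52 CP10K from 0.4 to 0.6. Cdh1 was at 1.54 to 4.45 CP10K from 0 to 0.2, and at 3.29, 10.6, 3.77 and 3.32 CP10K between 0.4 and 0.6. Above 0.6 the libraries parted. From 0.6 to 0.8 Epcam was at 3.03 CP10K in BMT replicate 1, where Mrc1+ macs were the most frequent cluster (31.7% of 180 cells), and at 13.8 to 22.9 CP10K in the other 3, where resident mLCs were. From 0.8 to 1.0 BMT replicate 2 had 0.252 CP10K in 77 cells, 98.7% of them S100a+ monos. In the other libraries with a value there, resident mLCs were the most frequent cluster. BMT replicate 1 had 2.13 CP10K on 7 UMIs in 20 cells (70% resident mLCs). BMT + T cells replicate 4 had 9.44 CP10K on 55 UMIs in 42 cells (83.3% resident mLCs).

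**Figure D4:**
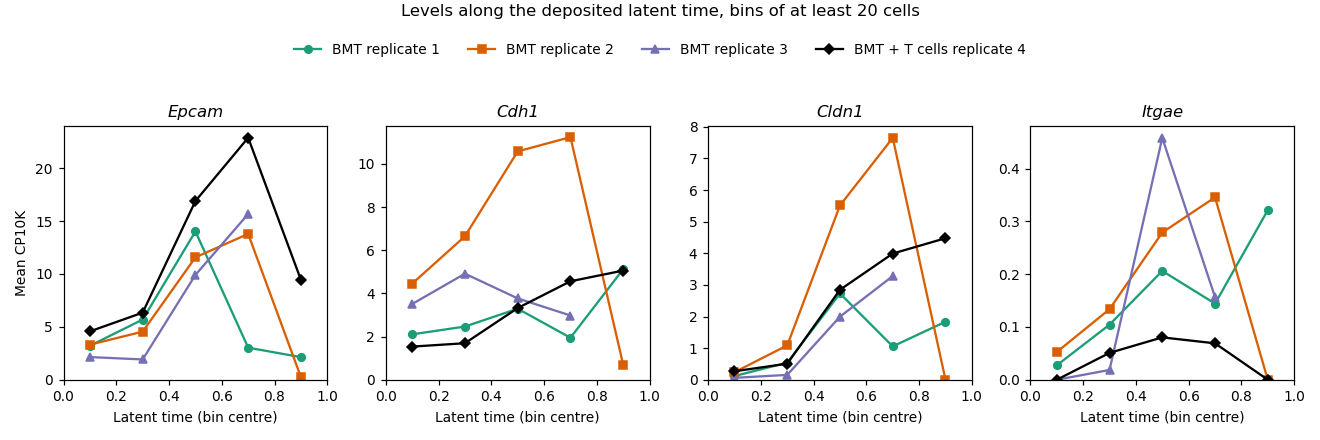
Mean CP10K of Epcam, Cdh1, Cldn1 and Itgae (y axes) against latent time (x axis, centres of 5 equal bins, at least 20 cells each) in the 4 donor libraries. Epcam and Cldn1 are higher between 0.4 and 0.6 than between 0 and 0.2 in every library and then part, with BMT replicate 1 dropping to 3.03 CP10K of Epcam and the BMT + T cells library at 22.9 CP10K.

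The BMT + T cells library was compared with the 3 BMT libraries on the mean log2 level over the 3 clusters with at least 20 cells in all 4 (Mono, Mrc1+ macs and resident mLCs). This takes the spread of the single BMT + T cells library to be that of the rest. Cdh1 was at 0.48 in the BMT + T cells library and at 1.27, 2.68 and 2.06 in BMT replicates 1, 2 and 3, below all of them. The log2 difference was -1.52 ± 0.488 (limma adjusted p = 0.949), so it was not called. Of 7345 genes tested 0% were called (0 by limma, with 352 below 0.05 before adjustment). When BMT replicate 3 was left out, which sets 1 library against 2, 202 genes passed and Cdh1 was among them (-1.49). The call thus depends on which BMT libraries are used. Epcam differed by 0.42 ± 0.286 (adjusted p = 0.949) and Cldn1 by 0.01 ± 0.371 (adjusted p = 0.999). The short names of BMT replicate 3 and of the BMT + T cells library share a form that the other BMT libraries lack, and no label says what it marks. Against BMT replicate 3 alone the differences were -1.58 for Cdh1, 0.27 for Epcam and 0.32 for Cldn1, with no test.

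In host keratinocytes levels are given by cluster, with 1 library per label, no test and intervals (95%, Poisson) that cover counting error only. Levels are summed UMIs per 10000. Epcam was at 4.36 (4.11 to 4.62) in follicular keratinocytes of the BMT library and 4.34 (4.07 to 4.62) in the BMT + T cells library. Basal keratinocytes held 0.704 (0.662 to 0.748) and 0.480 (0.446 to 0.516), and differentiated ones 0.664 (0.596 to 0.737) and 0.424 (0.360 to 0.495). The spread between libraries is unknown, so these values do not compare the labels. Cldn1 was also highest in follicular cells (1.59 and 1.46) and at 0.380 and 0.364 in basal cells. Cdh1 varied less, from 0.778 in KC_Four to 1.80 in differentiated cells of the BMT library and from 0.902 to 1.92 in the other. Tjp1 was at 0.102 to 0.305 and Ctnnb1 at 0.0818 to 0.225 over all 10 values. Itgae had 13 UMIs in all 5426 keratinocytes.

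The host CD11b+MHCII+ library held 7 numbered clusters, and 208 of its 781 cells were over 20% mitochondrial and 133 under 500 genes. Cluster 2 (170 cells) had 10.8 Epcam UMIs per 10000 (10.1 to 11.6), against 0.952 (0.781 to 1.15) in cluster 1, 1.70 (1.42 to 2.01) in cluster 3 and 1.24 (0.972 to 1.55) in cluster 4. Cldn1 did not follow Epcam there: clusters 1 to 4 held 3.27, 3.91, 4.02 and 3.38, with overlapping intervals. Cdh1 was at 2.04, 3.28 and 2.25 in clusters 1, 2 and 3 and at 0.301 (0.179 to 0.476) in cluster 4. Tjp1 was at 0.379, 0.292, 0.278 and 0.251 in clusters 1 to 4, and Ctnnb1 at 0.476, 0.152, 0.291 and 0.234. Cluster 2 also had the lowest median depth (1763.5 UMIs) and the highest keratinocyte marker sum of these 4 clusters (84.6 CP10K against 4.56 to 8.35), whose part in its levels was not tested. Cluster 5 carried keratinocyte markers (Krt14 at 205 CP10K), and its Epcam, 0.724, was of the order of basal keratinocytes. Itgae was highest in cluster 6, at 3.43 (2.62 to 4.41) on 60 UMIs, where 8 T cell markers summed to 216 CP10K, Cd3g foremost at 75.4 CP10K. Clusters 1 and 3 held 0.449 and 0.405 Itgae UMIs per 10000 with T cell sums of 0.522 and 0.759 CP10K.

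**Figure D5:**
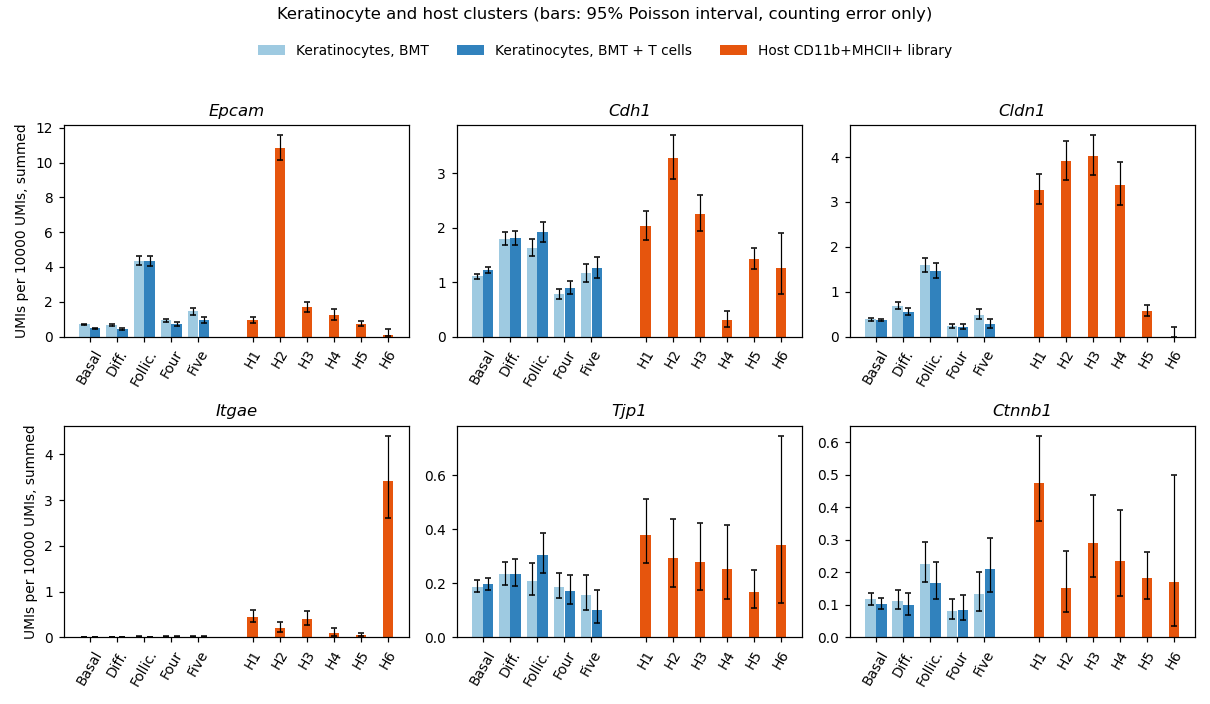
Summed UMIs per 10000 UMIs of the 6 genes (y axes, from 0) in 5 keratinocyte clusters of 2 libraries and in host clusters 1 to 6 (H1 to H6), with 95% Poisson intervals as error bars. Epcam peaks in follicular keratinocytes (4.36 and 4.34) and in host cluster 2 (10.8), and Itgae in host cluster 6 (3.43).

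Keratinocyte markers were measured in the donor cells too, because keratinocytes express most of the members. The 9 listed markers of 13 summed to 0.816 to 1.97 CP10K in resident mLCs, 0.569 to 2.23 in Mono and 0.990 to 2.54 in Mrc1+ macs. Krt14 was at 0 to 1.54 CP10K over donor profiles and at 106 to 392 CP10K in keratinocyte clusters. Krt14 of resident mLCs was multiplied by the highest ratio of each member to Krt14 in any keratinocyte cluster. It corresponded to at most 0.0175 CP10K of Epcam, 0.00920 of Cdh1, 0.00629 of Cldn1 and 0.00144 of Tjp1. The lowest resident mLC levels of these genes were 18.7, 4.36, 4.11 and 0.130 CP10K. In any donor cluster Krt14 corresponded to at most 0.0285 CP10K of Cdh1. These values rest on Krt14 alone and on ratios in separately sorted keratinocytes. Whether keratinocyte RNA has a part in the donor levels was not tested. T cell markers (6 of 8 listed) summed to at most 0.0870 CP10K in resident mLCs and 0.688 in migrating mLCs. For migrating mLCs this takes in BMT replicate 3 and BMT + T cells replicate 4, with 2 and 16 such cells.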

How the data were processed

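Epidermal cells were sequenced with a 10x 5' kit in 7 libraries. According to the submitters' processing notes and the study's methods, the authors used kallisto, bustools and Seurat on GRCm38, removed cells with under 500 genes or over 20% mitochondrial reads and likely doublets (DoubletFinder), and named the clusters. The deposited expression values were natural log (ln) values of 1 plus UMIs per 10000 UMIs of the cell. The mitochondrial column deposited by the authors was in percent, and their deposited latent time was a fraction. Undoing the log gave whole UMIs for 100% of values (tolerance 0.001). A UMI counts a transcript at its 5' end, so values were not divided by gene length. Ratios of the UMIs of a pair of genes were compared between clusters, not read as which gene is higher.

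CP10K was averaged per library and cluster of at least 20 cells, and log2(CP10K + 0.1) was tested with limma 3.58.1 (trend, robust with statmod 1.5.0, library as a block) in R 4.3.3, after tests on simulated data. The block is the library that clusters share. Their deviations from cluster means had a mean r of 0.12 to 0.42 within a library (lowest -0.01) and -0.18 to -0.08 between libraries. Python 3.11.15, pandas 2.3.3 and SciPy 1.17.1 were used. Intervals were 95% Poisson or Clopper-Pearson. Settings tried were pseudocounts of 1 and 0.01, no filter, deposited log means, no block, voom on summed UMIs and leaving out each library, plus, chosen after seeing the data, cells of at least 2000 UMIs. The members and the gene lists were chosen with earlier results of these data known. Named genes were the members, the 3 genes most like each tested member and junction genes called in resident mLCs against Mono, of which there were none. Other names were chosen after their values were seen. Sequences were RefSeq GRCm38.p6. Cells still in the tables with under 500 genes (0 to 133 a library) or over 20% mitochondrial (0 to 208) were kept.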

Additional observations from a re-analysis of the deposited data

Results flagged for a closer look

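Of 17 sets of 4 libraries tested for a library apart from the others (Dixon's gap test, which flags about 1 set in 20 by chance), 2 were marked. Cldn1 in resident mLCs of BMT replicate 2 was at 8.07 CP10K, against 4.11 to 4.23 in the other 3 libraries. Itgae in Mrc1+ macs of the same library was at 0.0484 CP10K, against 0 to 0.00434. In cycling minus resident mLCs, Itgae was higher by 0.28 and Tjp1 by 0.81 (log2 scale) in the BMT + T cells library and lower in both BMT libraries with values. These differences between labels were not tested, and the cycling values of the BMT + T cells library rest on 7 and 6 UMIs in 34 cells.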

How the results depend on the processing

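Precision is limited by 4 donor libraries, by clusters seen in 2 or 3 of them and by few UMIs of Itgae, Tjp1 and Ctnnb1. Of the values of single members under other settings, 258 kept direction and call, 10 gained the call, 8 lost it and 9 changed sign. This tally takes in Epcam and Itgae, whose calls between clusters are not used as results here.

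Counts of called genes moved with the scale. With a pseudocount of 0.01 they were 630 (resident mLC minus Mono, 295 as reported), 547 (Mrc1+ mac, 255), 326 (MC, 152), 183 (cycling, 99), 421 (migrating, 190) and 147 (MC minus Mono, 67). In the same order they were 41, 42, 14, 8, 26 and 9 with a pseudocount of 1, 21, 18, 9, 6, 17 and 5 with deposited log means, and 568, 479, 291, 164, 408 and 165 with voom. The split of migrating minus resident mLCs, 124 higher and 66 lower as reported, was 216 and 205 with a pseudocount of 0.01, 202 and 206 with voom, 22 and 4 with a pseudocount of 1 and 13 and 4 with deposited log means. That of resident mLC minus Mono was 109 and 186, and 11 and 30 with a pseudocount of 1. With no replicate block the counts were 290, 252, 156, 96, 225 and 59. Leaving out 1 library gave 299 to 310, 245 to 269, 141 to 156, 92 to 112, 166 to 204 and 56 to 80, and for BMT + T cells minus BMT 0 to 202 (202 without BMT replicate 3).

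Leaving out the replicate block ended no call of a member. Sign changes were confined to small differences. Itgae in cycling minus resident mLCs became 0.026 with deposited log means, 0.11 with cells of at least 2000 UMIs and 0.19 with voom, and ranged from -0.081 to 0.0036 without 1 library. Cdh1 there ranged from -0.58 to 0.046. Cldn1 between labels became -0.10 with deposited log means and -0.085 with a pseudocount of 1, and ranged from -0.14 to 0.29. The cause was not tested. Without BMT replicate 1 Itgae failed the filter and gave no value.

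Unthinned, mean shares of resident mLCs with a UMI were 93.6% for Epcam, 93.2% for Cdh1, 87.4% for Cldn1, 11.8% for Itgae, 10.1% for Tjp1 and 8.79% for Ctnnb1, against 96.5%, 71.4%, 56.3%, 4.34%, 2.90% and 2.41% after thinning.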
